A study of Mus musculus with 9 samples.

Results

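The 10 genes Cdkn1a, Mdm2, Ccng1, Trp53inp1, Tnfrsf10b, Btg2, Sesn1, Zmat3, Phlda3 and Bax are known targets of the transcription factor p53, and were taken by name from a table of 55487 genes. All 10 were matched by symbol and passed the filter on low counts, as did 15237 genes in all. RNA was measured in B16F10, an established mouse melanoma line, in 3 groups: untreated (media), given 50 ng/mL interferon gamma (IFNγ) for 6 h, or given the same IFNγ together with 50 nM FK866, a blocker of the NAD salvage enzyme NAMPT, for 6 h. Each group has 3 libraries, and every title carries the word Control and the number 3, 4 or 5, which is used here to name the libraries. The labels give neither the meaning of the number nor the origin of the 3 libraries of a group, whether from 1 culture or several. The p-values here therefore measure only how these libraries vary, and that variation may be technical. The treatment text speaks of mouse or human IFNγ and gives a product only for the mouse cytokine. No group received FK866 alone. The members were chosen by their measured CPM levels in these libraries, across numbers 3, 4 and 5 and across the 3 groups. Differences between numbers are therefore given as a description with no test. The same levels enter the comparisons of treatments, so p-values, calls and counts of the members there are not independent of that choice. They describe the chosen genes, and do not test the list against all genes.

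p53 is held at a low level by MDM2, which marks it for degradation, and it accumulates after DNA damage and other stress. It then binds paired copies of a decamer, a 10-base element, in or near its target genes and raises their transcription. The targets act in cell cycle arrest (Cdkn1a, which encodes the CDK inhibitor p21; Btg2, an antiproliferative adaptor of mRNA deadenylation; Ccng1, cyclin G1) and in feedback on p53 itself (Mdm2). Others act in cell death (Bax, a pore-forming BCL2 family member; Tnfrsf10b, the TRAIL receptor; Trp53inp1, a p53-induced regulator of death and autophagy; Phlda3, an inhibitor of AKT). Sesn1 encodes a sestrin that restrains mTORC1, and Zmat3 an RNA-binding zinc finger protein.

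The genes are protein-coding in the GENCODE M21 annotation of GRCm38. Cdkn1a lies on chromosome 17 from 29090976 to 29100727, Mdm2 on chromosome 10 from 117688875 to 117710758 and Ccng1 on chromosome 11 from 40748552 to 40755311. Trp53inp1 lies on chromosome 4 from 11156431 to 11174379, Tnfrsf10b on chromosome 14 from 69767472 to 69784411 and Btg2 on chromosome 1 from 134075170 to 134079120. Sesn1 lies on chromosome 10 from 41809935 to 41908424, Zmat3 on chromosome 3 from 32334792 to 32366014, Phlda3 on chromosome 1 from 135766119 to 135769136 and Bax on chromosome 7 from 45461697 to 45466898. Exons of 2 members overlap those of another gene. Cdkn1a shares 273 exon bases with AC167363.2 on the opposite strand, which had 18 counts over the 9 libraries, and Bax shares 192 with Gm45808 on the same strand, which had 0.

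Promoter sequences from RefSeq (GRCm38.p6, from 250 bases before to 50 after a transcription start) were matched for 7 of the 10 members, in 9 windows. Trp53inp1, Tnfrsf10b and Zmat3 had no entry. The p53 decamer, which reads the same on both strands, was present in 5 of the 9 windows and in 8.36% of all 32851 windows. A pair of decamers separated by at most 13 bases was present in 0.073% of all windows and in 1 of the members' windows, the upstream one of Cdkn1a. The sequences below are shown because Cdkn1a, Mdm2 and Ccng1 differed between the numbers in all 3 treatments, while Bax, which also holds the decamer, differed little. Each is written 5′ to 3′ on the gene's strand, with exact matches to the decamer in capitals. A copy with a mismatch is not marked, so the capitals need not be the pair that p53 binds. The Cdkn1a window is chr17:29090729-29091028 on the plus strand, and its capitals begin 73 and 51 bases before the start, with a spacer of 12 bases. The others are stretches of 50 bases on the minus strand, Mdm2 at chr10:117710915-117710964, Ccng1 at chr11:40755442-40755491 and Bax at chr7:45467070-45467119.
Cdkn1a: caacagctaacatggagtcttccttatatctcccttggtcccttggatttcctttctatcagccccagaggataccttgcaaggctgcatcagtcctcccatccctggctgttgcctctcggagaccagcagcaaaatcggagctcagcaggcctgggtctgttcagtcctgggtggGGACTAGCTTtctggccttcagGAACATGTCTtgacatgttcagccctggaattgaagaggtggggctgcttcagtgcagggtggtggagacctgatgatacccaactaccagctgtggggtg
Mdm2: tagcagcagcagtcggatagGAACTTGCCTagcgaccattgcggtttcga
Ccng1: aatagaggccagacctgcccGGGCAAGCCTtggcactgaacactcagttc
Bax: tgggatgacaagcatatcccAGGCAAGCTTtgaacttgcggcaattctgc
The window of the downstream Sesn1 start held a decamer as well, and those of Btg2, Phlda3, the upstream Sesn1 start and the downstream Cdkn1a start held none. A match is a string of letters, and no match says only that these letters are not in this window.

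Library totals ran from 15317003 to 18466972 counts. The 7 melanocyte lineage markers (Mitf, Pmel, Tyr, Tyrp1, Dct, Mlana and Sox10) were detected in every library and summed to between 15100 and 18600 CPM (counts relative to the library total, here with no further scaling). Of the leukocyte markers, Ptprc, Itgam and Adgre1 had no count in any library. Cd68, named after its values were seen, ran from 3.08 to 11.3 CPM when scaled by TMM, which corrects library totals for composition. All its number 4 libraries were above the others and all of number 5 below. Lyz2 had 3 to 11 counts in a library. By library totals, the list of 7 summed to 6.55 to 8.99 CPM in number 3. It summed to 9.80 to 12 CPM in number 4 and 3.21 to 4.64 in number 5. Of 9 fibroblast, endothelial and keratinocyte markers, 3 (Cdh5, Krt5 and Krt14) had no count. Pdgfra, Pdgfrb and Col1a2 are named after their values were seen, and are given as scaled by TMM. Pdgfra ran from 0.949 to 1.19 CPM in number 3, 5.60 to 7.29 in number 4 and 1.44 to 2.63 in number 5. Pdgfrb had its lowest mean in number 4, with 6.41, 3.95 and 5.11 CPM in numbers 3, 4 and 5. The means of Col1a2 were 3.16, 3.42 and 2.99 CPM. By library totals, the 9 markers summed to 8.55 to 15.1, 12.8 to 19.7 and 8.62 to 13.1 CPM in numbers 3, 4 and 5. Whether such cells were present, or had a part in the differences between numbers, was not tested.

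The p53 targets were high in the libraries of number 3 and lower in numbers 4 and 5, whatever the treatment. In 8 of the 10 members all 3 libraries of number 3 were above the 6 others (10.4% of all genes tested), the exceptions being Sesn1 and Bax. The mean of number 3 exceeded that of number 5 by at least 1.5-fold in the same 8 members (10.7% of all genes), and exceeded both other means by that much in 7, without Mdm2 (3.51% of all genes). The median difference between number 3 and number 5 over the members was 1.40 on the log2 CPM scale, and -0.003 over all genes tested. Between number 3 and number 4 it was 0.85, and between number 4 and number 5 it was 0.36. Number 3 was at least 1.5-fold above number 4 in 7 members (6.43% of all genes), and number 4 above number 5 in 3 (8.37%). All libraries of number 5 were below the other 6 in 4 members, Cdkn1a, Mdm2, Ccng1 and Sesn1 (9.63%). That count was 7 without the IFNγ plus FK866 library of number 4 and 8 without the media library of number 5. The share of all genes with a library left out is not given here, and 9.63% holds for all 9 libraries. All libraries of number 4 were above the others in none (5.4%). The highest and lowest number means were 1.5-fold apart in 8 members (29.2%). These levels chose the list, so nothing is read from these counts.

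**Figure D1:**
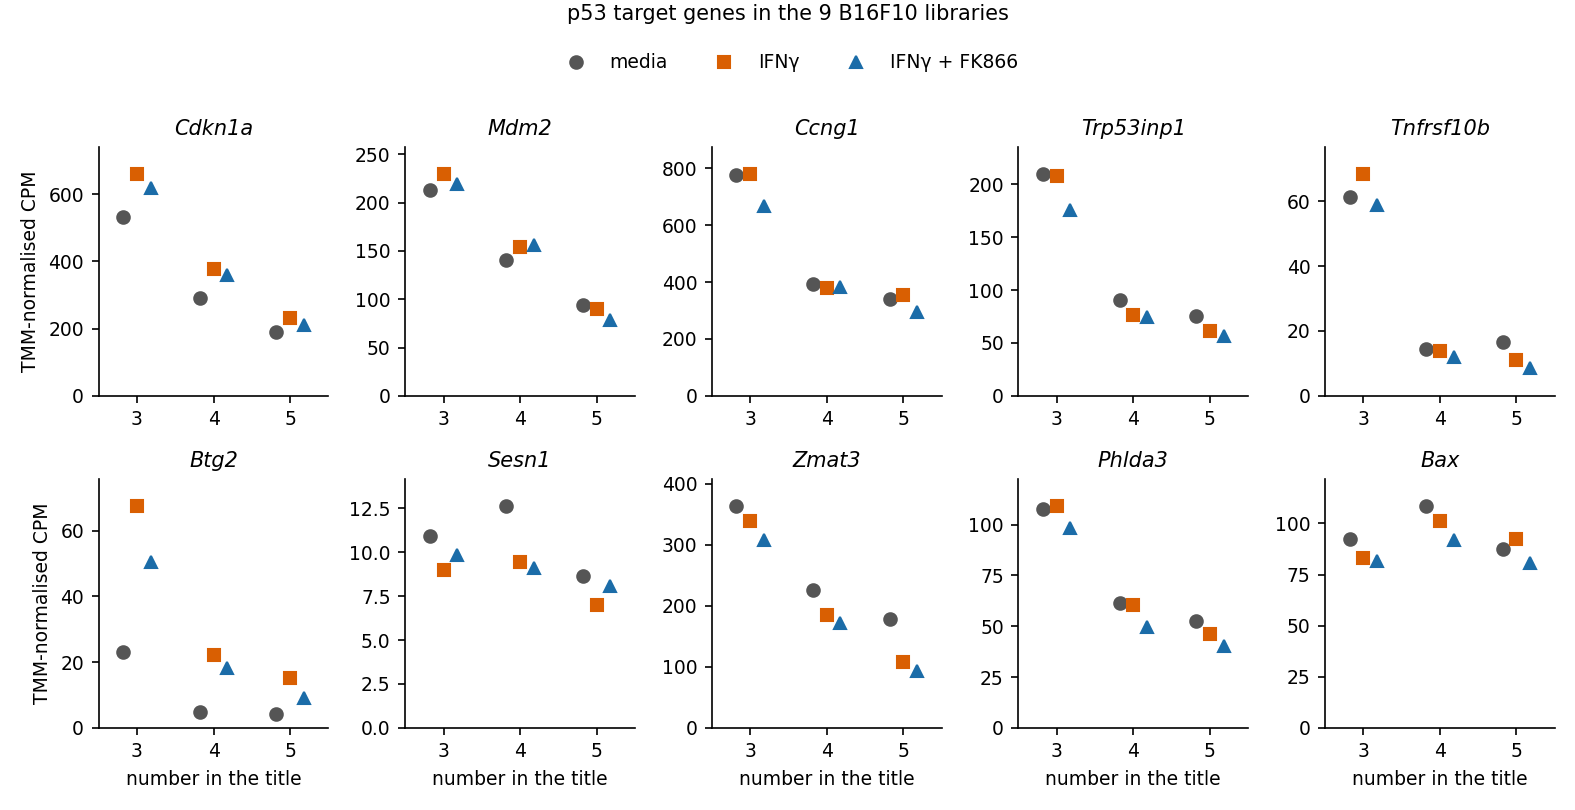
Level of each of the 10 p53 target genes in TMM-normalised CPM (vertical axes, each from 0) against the number in the library title, with 1 point per library and the treatment given by colour and shape. In 8 panels the 3 points of number 3 lie above the other 6, and in Sesn1 and Bax they do not.

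Cdkn1a showed the order 3, 4, 5 without overlap. Its levels in media, IFNγ and IFNγ plus FK866 were 533.2, 660.8 and 618.3 CPM in number 3 (from here on scaled by TMM, which corrects library totals for composition). They were 291.0, 376.2 and 360.7 CPM in number 4 and 191.1, 233.0 and 211.5 CPM in number 5. The lowest number 3 library thus stood above the highest number 4 library, and the lowest of number 4 above the highest of number 5. The mean difference of number 3 from number 5 was 2.85-fold, and its log2 value of 1.51 ± 0.03 (SD over 3 treatments) varied little with treatment.

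Mdm2 followed the same order, from 213.4, 229.7 and 219.5 CPM in number 3 to 140.9, 153.8 and 155.6 in number 4 and 94.4, 90.0 and 78.4 in number 5. Neighbouring numbers did not overlap, and the difference of number 3 from number 5 was 2.53-fold. Ccng1 had 775.8, 780.4 and 666.3 CPM in number 3, 392.3, 380.4 and 380.9 in number 4, and 339.7, 352.9 and 293.5 in number 5. Its step from number 3 to number 4 was 1.92-fold, and that from number 4 to number 5 was 1.17-fold, with number 4 still wholly above number 5. Complete separation in the order 3, 4, 5, as in these 3 genes, was seen in 2.81% of all genes.

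Tnfrsf10b had the largest mean difference of number 3 from number 5 over the 3 treatments, at 2.41 ± 0.47 on the log2 scale, within the spread of that of Btg2 (2.33 ± 0.17), which differed more in media. It had 61.4, 68.4 and 58.9 CPM in the media, IFNγ and IFNγ plus FK866 libraries of number 3, against 14.4, 13.8 and 12.1 in number 4 and 16.6, 11.2 and 8.58 in number 5. Numbers 4 and 5 overlapped, and number 3 was 4.66-fold above number 4 and 5.33-fold above number 5. Number 3 exceeded number 5 by 3.68-fold in media and by 6.06-fold and 6.78-fold in the IFNγ and IFNγ plus FK866 libraries. With 1 library per number and treatment that variation could not be tested.

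Trp53inp1 had 209.8, 208.2 and 175.6 CPM in number 3, 91.0, 76.1 and 74.9 in number 4, and 75.1, 60.9 and 56.5 in number 5. Its media library of number 5 lay within the range of number 4, and number 3 was 2.45-fold and 3.09-fold above numbers 4 and 5. Phlda3 had 107.5, 109.2 and 98.5 CPM in number 3, 61.2, 60.2 and 49.5 in number 4, and 52.6, 46.3 and 40.5 in number 5. Numbers 4 and 5 overlapped for it, and number 3 was 1.85-fold and 2.27-fold above them.

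Zmat3 had 363.9, 339.1 and 308.6 CPM in number 3, 226.5, 184.4 and 171.4 in number 4, and 177.7, 107.2 and 93.7 in number 5. The media library of number 5 overlapped number 4, and the excess of number 3 over number 5 was 2.05-fold in media, 3.16-fold with IFNγ and 3.29-fold with IFNγ plus FK866. Btg2 had 23.2, 67.6 and 50.3 CPM in number 3, 4.77, 22.1 and 18.2 in number 4, and 4.30, 15.3 and 9.17 in number 5. Its lowest number 3 library, in media, exceeded the highest of the other numbers, the IFNγ library of number 4, by little. Compared within a treatment, number 3 was 5.29-fold, 4.39-fold and 5.43-fold above number 5.

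Sesn1 and Bax did not share the pattern. Sesn1 had 10.9, 9.02 and 9.83 CPM in number 3, 12.7, 9.44 and 9.10 in number 4, and 8.66, 6.99 and 8.05 in number 5. Numbers 3 and 4 overlapped, number 5 was below both, and no pair of number means differed by 1.5-fold. Bax had 92.3, 83.3 and 81.5 CPM in number 3, 108.6, 101.4 and 91.7 in number 4, and 87.7, 92.2 and 80.8 in number 5. All 3 numbers overlapped with at least 1 other, and number 3 had 0.853 of the level of number 4 and 0.986 of that of number 5.

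**Figure D2:**
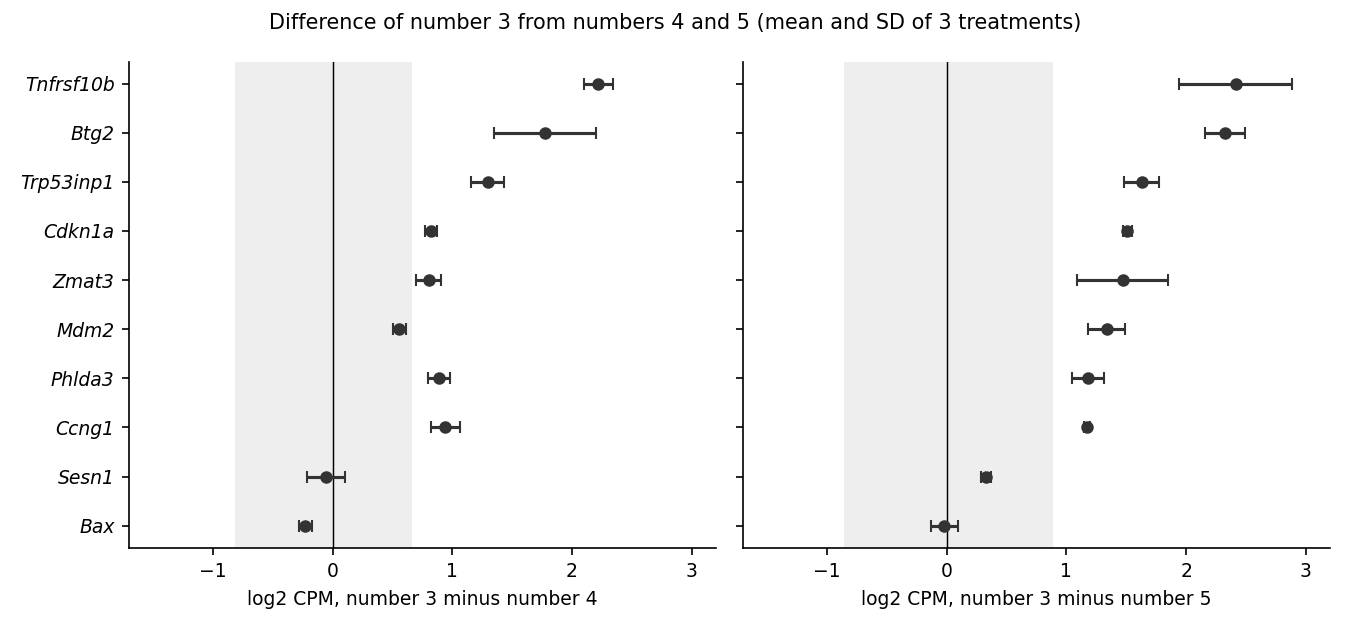
Difference in log2 CPM (horizontal axes) of number 3 from number 4 (left) and from number 5 (right) for each member, as the mean and SD over the 3 treatments, with the grey band spanning the middle 90% of all genes tested (5th to 95th percentile). The difference from number 5 runs from -0.02 for Bax to 2.41 for Tnfrsf10b, and 8 members lie beyond the band on the right.

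Per kb of annotated exon, Ccng1 was the most abundant member, with a mean of 138 CPM per kb over the 9 libraries (range 83.6 to 222.2), followed by Cdkn1a with 108.7 (53.8 to 186.0). Bax had 57.8 (51.3 to 68.9), Phlda3 44.6 (26.0 to 70.0) and Mdm2 30.1 (15.4 to 45.2). Zmat3 had 19.2 (8.19 to 31.8), Trp53inp1 17.6 (8.73 to 32.4), Btg2 8.71 (1.57 to 24.6), Tnfrsf10b 5.41 (1.57 to 12.6) and Sesn1 2.36 (1.76 to 3.18). Each neighbouring pair in this order had overlapping ranges.

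Transcripts of p53 itself were lowest in number 5, as were Cdkn1a, Mdm2, Ccng1 and Sesn1, and were highest in number 4. Trp53 had 154.5, 155.7 and 152.5 CPM in number 3, 165.1, 173.9 and 172.9 in number 4, and 147.4, 117.6 and 111.5 in number 5, with number 4 above the others and number 5 below, and with number 3 at 1.24-fold the level of number 5. Mdm4, which encodes a partner of MDM2 that inhibits p53, had 102.6, 116.6 and 108.1 CPM in number 3, 91.1, 112.1 and 113.2 in number 4, and 64.7, 75 and 81.1 in number 5. Number 5 was lowest, and numbers 3 and 4 overlapped. Cdkn2a, which encodes p16INK4a and the MDM2 inhibitor p19ARF, had 0 counts in every library, which allows at most 0.162 to 0.196 CPM in a library (3 counts of its total, for counting error only). Of the 15 regulators listed, 12 were tested, and Cdkn2a and the p53 relatives Trp63 and Trp73 were not. In 2 of the 12 all number 3 libraries were above the others and in 2 all were below (10.4% and 11.0% of all genes). Named after their values were seen, those above were Usp7, which encodes a deubiquitinase, and Trp53bp1, a DNA damage response gene (1.54-fold over number 5), and those below were the DNA damage kinase genes Atm and Chek1. The 3 regulators with the highest mean level, Hipk2, Usp7 and Ep300, had differences of number 3 from number 5 of -0.31, 0.15 and 0.07 on the log2 CPM scale.

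Of 35 other p53 targets listed, 30 passed the filter. This list was chosen with earlier results of these data known, as were those of regulators and cell cycle genes. Their counts by number are therefore a description with no test. In 15 of the 30 every number 3 library was above the other 6, and in none was every number 3 library below (10.4% and 11.0% of all genes). The mean of number 3 exceeded that of number 5 by at least 1.5-fold in 14 of the 30 and was lower by that much in none (10.7% and 9.38% of all genes), with a median log2 difference of 0.53. Against number 4, 4 were higher by that much (6.43% of all genes), with a median of 0.22. Lower by that much was 1, Fas (1290 of all 15237 genes). All number 5 libraries were below the other 6 in 12 of the 30 (9.63%). Of these targets 4 exceeded both other numbers by 1.5-fold (3.51% of all genes), and they are named here after their values were seen. Ak1, an adenylate kinase, had 106.5, 110.4 and 96.7 CPM in number 3 against 13.8 to 19.9 CPM in the 6 others, a difference of 6.90-fold from number 5. Plk2, a polo-like kinase, differed by 3.33-fold from number 5 and Dcxr, a xylulose reductase, by 2.94-fold. The fourth, Ptprv, had 51 counts over the 9 libraries (2 to 13 in a library), with levels in numbers 4 and 5 near that of 3 counts. It passed the filter only through number 3, and no fold is given. The 3 most abundant of the list, Bak1, Rps27l and Ei24, differed by 0.843-fold, 1.47-fold and 0.891-fold. The targets Pmaip1, Perp, Spata18, Gdf15 and Epha2 were below the filter, and Pmaip1, which encodes the BH3-only protein NOXA, had 0 counts in every library.

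p21 is known to lower cell cycle genes through the DREAM complex, and 20 of these were examined. None had all number 3 libraries above the others, 6 had them all below (11.0% of all genes), and 8 had all number 5 libraries above the others (10.3%). The median difference of number 3 from number 5 was -0.23 on the log2 CPM scale. None was higher in number 3 than in number 5 by 1.5-fold (10.7% of all genes), and 4 were lower by that much (9.38%), named after their values were seen. These are the mitotic kinase gene Plk1, the cyclin gene Ccna2 and the transcription factor genes E2f1 and Foxm1. Plk1 had 99.1, 95.1 and 102.0 CPM in number 3, 148.9, 147.8 and 139.7 in number 4, and 165.2, 158.4 and 157.2 in number 5. The 3 most abundant genes of this list, Top2a, Mki67 and Rrm2, had 0.727, 0.863 and 0.959 of the number 5 level in number 3.

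**Figure D3:**
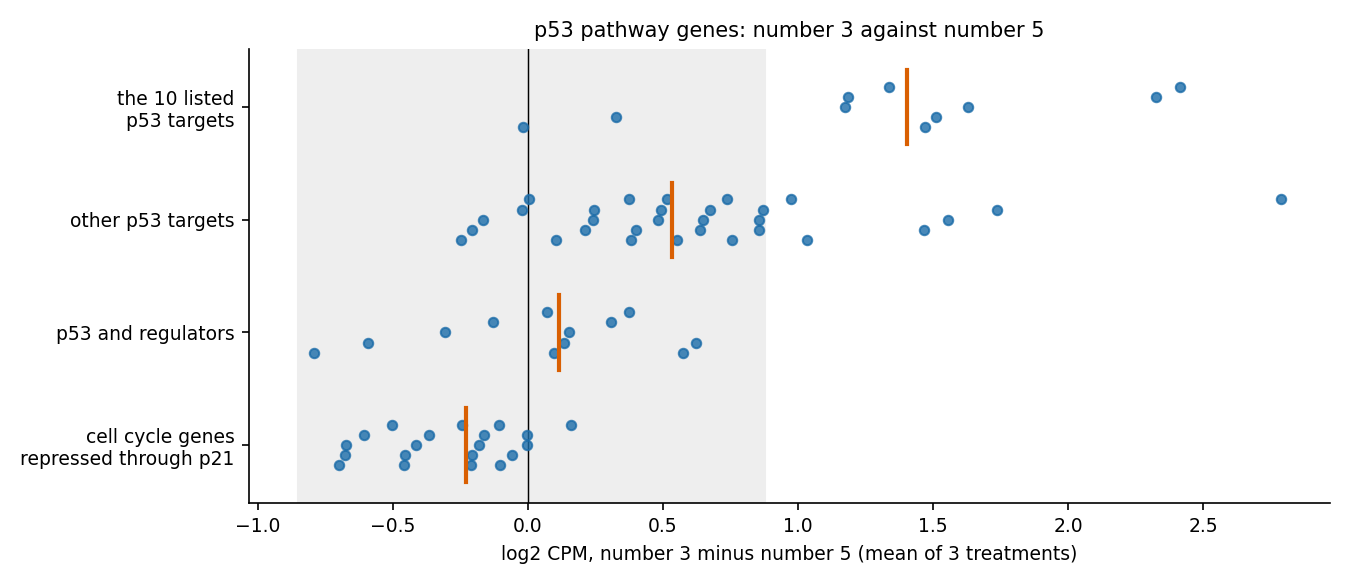
Difference in log2 CPM between number 3 and number 5 (horizontal axis, mean of 3 treatments) for the tested genes of 4 lists, 1 point per gene, with the list median as a vertical bar and the grey band spanning the middle 90% of all genes tested. The medians are 1.40 for the 10 listed targets, 0.53 for the 30 other targets, 0.12 for 12 regulators and -0.23 for 20 cell cycle genes.

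Likeness of pattern was measured as Pearson's r of log2 CPM over the 9 libraries, among 9759 genes with a mean of at least 5 CPM that are no members, predicted genes or pseudogenes. It is a description, since libraries with the same number deviated together. The genes most like Cdkn1a were Laptm4a (r = 0.993), Dclk1 (0.990), Tec (0.989), Plk2 (0.989) and Foxr2 (0.989). Those most like the mean of the 10 members were Psrc1 (0.994), Gclc (0.993), Dbi (0.992), Slc25a12 (0.990) and Slc25a3 (0.988). Among the members, r with Cdkn1a was 0.967 for Mdm2, 0.918 for Ccng1 and 0.902 for Phlda3, and 0.402 for Sesn1 and -0.164 for Bax. The value of r takes no account of the size of a difference. As geometric means in numbers 3, 4 and 5, Cdkn1a had 601.8, 340.7 and 211.3 CPM and Laptm4a 363.2, 294.4 and 246.4. Dclk1 had 144.4, 129.9 and 118.7 CPM, and Tec 10.7, 6.24 and 3.97.

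The response to the cytokine was read from IFNγ against media. Btg2 was higher with IFNγ in each number, by 2.91-fold, 4.64-fold and 3.56-fold in numbers 3, 4 and 5, and Cdkn1a by 1.24-fold, 1.29-fold and 1.22-fold. Zmat3 was lower in each, with log2 differences of -0.10, -0.30 and -0.73. Higher in all 3 numbers were these 2 members (20.2% of all genes), and lower in all 3 were Zmat3, Trp53inp1 and Sesn1 (22.3%). In the fit of group means, whose error holds the differences between numbers, none of the 10 members was called (edgeR, adjusted p below 0.05 over all genes; 3.3% of all genes called, 2.8% higher and 0.499% lower). None had an unadjusted p below 0.05 (1550 of all 15237 genes had one). DESeq2 called none (4.03% of the 17933 genes to which it gave an adjusted p). Their median log2 fold change was -0.02, and -0.01 over all genes.

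Btg2 averaged 10.8 ± 10.8 CPM in media and 35.0 ± 28.4 with IFNγ (SD, n = 3), and its log2 fold change in that fit was 1.70 (standard error 0.84, edgeR adjusted p = 0.601). Cdkn1a averaged 338.4 ± 175.9 and 423.3 ± 217.7 CPM, and its log2 fold change was 0.32 (standard error 0.49). The groups overlapped for every member, while 7.97% of all genes were higher and 5.85% lower without overlap. With the number as a block, which compares libraries within numbers, 2 members rose and 1 fell, where 14.3% of all genes were called (8.12% higher and 6.14% lower). Btg2 rose by 1.79 on the log2 scale (standard error 0.13, edgeR adjusted p = 1.26e-09) and Cdkn1a by 0.32 (0.06, adjusted p = 5.99e-04). Zmat3 fell by 0.38 on the log2 scale (0.09, adjusted p = 0.00698), a call that was lost without the libraries of number 5 (log2 fold change -0.19, adjusted p = 0.0812).

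The other 7 members were not called with the block. Mdm2 and Ccng1 had block log2 fold changes of 0.06 (95% interval -0.09 to 0.20) and 0.01 (-0.13 to 0.14). Trp53inp1 had -0.18 (adjusted p = 0.0753) and was called without the libraries of number 3 (log2 fold change -0.27, adjusted p = 0.0207). Tnfrsf10b had -0.11, with differences of 0.16, -0.07 and -0.57 in numbers 3, 4 and 5. Phlda3 and Bax had -0.06 each, with intervals of -0.20 to 0.08 and -0.19 to 0.07. Sesn1 had -0.34 with an interval of -0.62 to -0.06 and an adjusted p of 0.11, and was lower with IFNγ in each number.

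**Figure D4:**
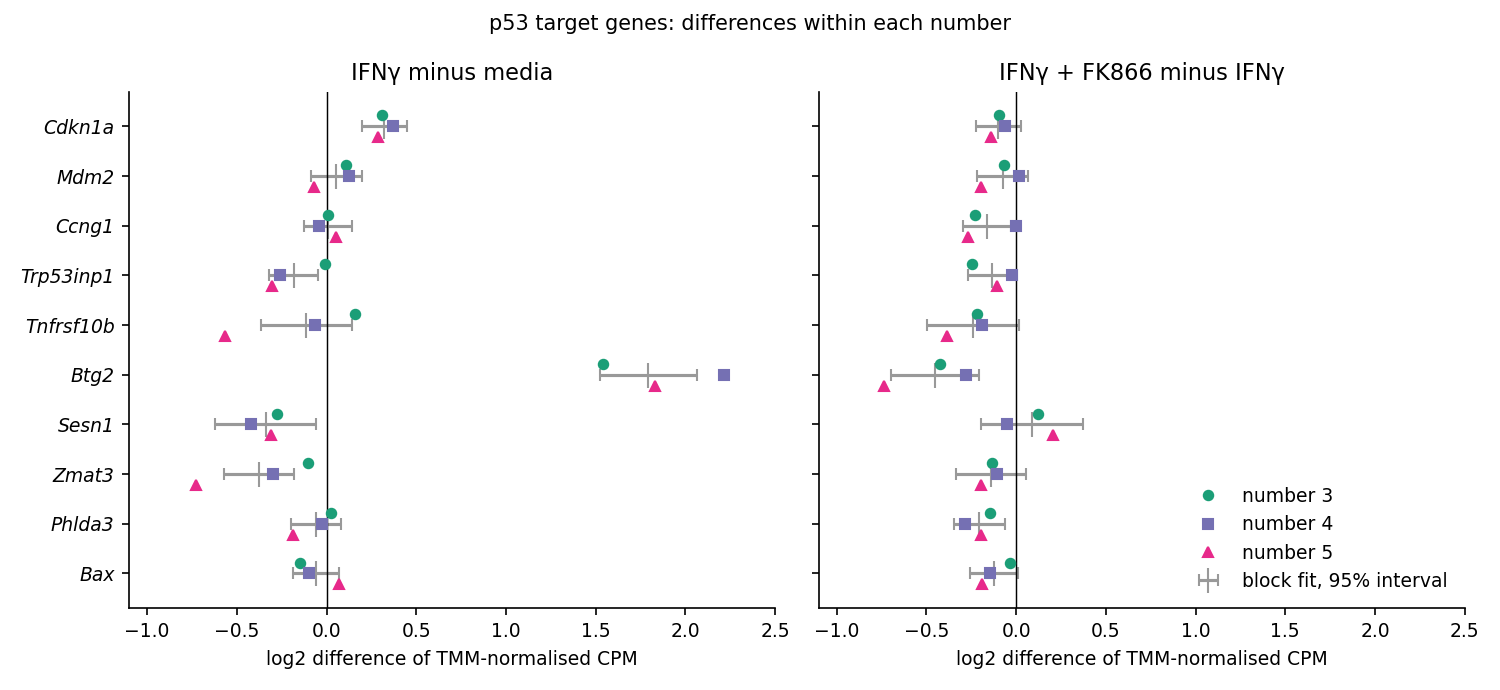
Difference in log2 TMM-normalised CPM (horizontal axes) between IFNγ and media (left) and between IFNγ plus FK866 and IFNγ (right) for each member, with 1 point per number and, in grey, the estimate of the fit with the number as a block and its 95% interval. On the left Btg2 lies at 1.54 to 2.21 and Cdkn1a at 0.29 to 0.37, and on the right 9 of the 10 block estimates lie below 0, the exception being Sesn1.

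Regulators and other targets were compared in the same way. Of the 12 regulators tested none was called between IFNγ and media without the block. With it 3 rose (8.12% of all genes higher), Mdm4 (log2 fold change 0.23, adjusted p = 0.0166), Atm (0.26, 0.00427) and the kinase gene Hipk2 (0.30, 0.0334). Hipk2 differed by 0.44, 0.55 and -0.06 on the log2 scale in numbers 3, 4 and 5, so number 5 did not share the direction. Trp53 was not called. Of the 30 other targets, 2 rose without the block (2.8% of all genes higher), Pml and Fas, both of which are also known interferon-inducible genes. Pml, the organiser of nuclear bodies, rose from 48.2 ± 1.45 to 119.3 ± 25.4 CPM (log2 fold change 1.31, standard error 0.17, edgeR adjusted p = 0.0021). Fas, a death receptor gene, had 0.251, 0.384 and 0 CPM in media and 3.16, 5.12 and 1.72 with IFNγ in numbers 3, 4 and 5 (adjusted p = 0.0387). Its media libraries lay near the level of 3 counts and it passed the filter only through the groups with IFNγ, so it could be tested only because it was high there, and no fold is given. Leaving out a single media library (3, 4 or 5) ended the call of Fas, with adjusted p of 0.12, 0.0866 and 0.0914, as did leaving out the IFNγ library of number 3 (0.0753) or 4 (0.141). With the block 5 rose and 1 fell (8.12% and 6.14% of all genes), the others being Plk2 (0.37), Apaf1 (0.27) and Bak1 (0.47), higher, and Plk3 (-0.81), lower. Without the block Plk3 was called by DESeq2 (adjusted p = 0.0174) and not by edgeR (adjusted p = 0.0738). Of the 20 cell cycle genes none was called without the block and 1 with it, Top2a, higher (0.36, adjusted p = 2.82e-04, against 8.12% of all genes higher).

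Whether NAMPT inhibition alters the response was read from IFNγ plus FK866 against IFNγ alone. No member was called without the block, with it or by DESeq2, and over all genes 0.0% were called without the block or by DESeq2 and 0.0197% with the block. An unadjusted p below 0.05 was found for 0 members without the block, 0 with DESeq2 and 3 with the block. Of all 15237 genes tested it was found for 88, 58 and 573. Differences within numbers were mostly downward. The members were chosen by their levels in these same libraries, so their counts beside the shares of all genes are a description. In 7 of the 10 members the FK866 library was the lower in all 3 numbers, against 16.2% of all genes (Cdkn1a, Trp53inp1, Tnfrsf10b, Btg2, Zmat3, Phlda3 and Bax). None was higher in all 3 (12.1% of all genes), and the groups overlapped for every member (1.94% of all genes higher and 1.39% lower without overlap). Scaled by library totals alone it was the lower in all 3 for 6 members (9.78% of all genes), without Trp53inp1. The median block log2 fold change was -0.14 for the members and -0.01 over all genes. It was -0.05 for the 30 other targets tested, 0.005 for the 12 regulators and -0.007 for the 20 cell cycle genes. None of the genes in these lists was called without the block, with it or by DESeq2.

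Btg2 had the largest of these differences, with log2 values of -0.43, -0.28 and -0.74 in numbers 3, 4 and 5 and a block estimate of -0.45 (95% interval -0.70 to -0.21, edgeR adjusted p = 0.987). Cdkn1a had -0.10, -0.06 and -0.14 and an interval of -0.23 to 0.03. Phlda3 had an interval of -0.35 to -0.06 and Ccng1 of -0.30 to -0.03, and those of the other members held 0 (Mdm2 -0.22 to 0.07, Tnfrsf10b -0.49 to 0.02, Sesn1 -0.20 to 0.37). These intervals are not adjusted for the number of genes tested. The upper bounds leave no rise above 0.37 on the log2 scale within the interval of any member.

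IFNγ plus FK866 was also compared with media, a comparison that shares its libraries with the others. No member was called without the block (3.36% of all genes, 2.76% higher and 0.597% lower). None had an unadjusted p below 0.05 in that fit (1620 of all 15237 genes had one). DESeq2 called none (3.82% of the 18972 genes to which it gave an adjusted p). The groups overlapped for every member (7.98% of all genes higher and 6.29% lower without overlap). Within numbers, 2 members were higher in all 3 (18% of all genes) and 7 lower in all 3 (23.1%). With the block 2 rose and 3 fell, where 16.1% of all genes were called, 8.53% higher and 7.61% lower. Btg2 rose by 1.34 (standard error 0.13, edgeR adjusted p = 1.49e-07) and Cdkn1a by 0.22 (0.06, 0.0133). Zmat3 fell by 0.52 (0.09, 3.61e-04), Trp53inp1 fell by 0.31 (0.07, 0.00161) and Phlda3 fell by 0.26 on the log2 scale (0.07, 0.00857). Without the libraries of number 4 the calls of Cdkn1a and Phlda3 were lost (adjusted p = 0.116 and 0.107), and without those of number 5 that of Phlda3 (0.0924). Without those of number 3 Tnfrsf10b was called as well (log2 fold change -0.57, adjusted p = 0.0132). Of the other targets Pml and Fas rose without the block, as against media with IFNγ alone, and Plk3 fell from 7.81 ± 0.707 to 3.82 ± 0.494 CPM (log2 fold change -1.03, edgeR adjusted p = 0.0226). Leaving out any 1 media library, or the IFNγ plus FK866 library of number 4 or 5, ended the call of Plk3 (adjusted p from 0.059 to 0.119). The same libraries and the IFNγ libraries of numbers 3 and 4 each ended that of Fas when left out (0.056 to 0.173). With the block 4 other targets rose (Fas, Pml, Apaf1 and Bak1) and 3 fell, Plk3, Ei24 (log2 fold change -0.18, adjusted p = 0.0472) and Fdxr (-0.36, 0.0415), the ferredoxin reductase gene. Among the regulators Mdm4, Atm and Hipk2 rose with the block, though Hipk2 differed by 0.58, 0.52 and -0.001 in numbers 3, 4 and 5, and Ppm1d, which encodes the p53 phosphatase WIP1, fell (-0.28, 0.0232). Of the cell cycle genes Top2a rose (0.36, 2.81e-04) and E2f1 fell (-0.24, 0.0356).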

How the data were processed

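RNA was sequenced in 9 libraries of B16F10 cells. The authors deposited raw read counts per Ensembl gene, as integers. Per the submitters' processing notes, which give no role or order, the tools were cutadapt 1.16, STAR 2.7.6a, DESeq2 1.30.1 and featureCounts 1.6.3, and the builds mm10 and GRCm38. For the annotation release and the strand setting the entry is "not given in the sources used here", so reads of overlapping genes on opposite strands cannot be told apart. The series text names a droplet platform, but the table holds no values per cell and was treated as bulk.

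Symbols were matched for 55141 of 55487 genes. The test was the quasi-likelihood F test of edgeR 4.0.16 (R 4.3.3) after filterByExpr and TMM scaling. A single model of group means covered the 9 libraries, and the code was tested on simulated data. The simulated data held no differences between numbers, so they do not show how that model behaves with such differences. The Benjamini-Hochberg adjustment ran over 15237 genes, which hold 99.9% of counts, and an adjusted p below 0.05 counted as a call. DESeq2 1.42.0, other scalings, no filter, 2-group fits and leaving out libraries were alternatives. Levels by number are means of log2 CPM with a prior count of 2. Libraries within a group differed by more than sampling noise, with a chi-square of 23.88 to 41.36 per degree of freedom.

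Libraries with the same number deviated from their group means together, and the number was therefore taken to pair them: correlations were 0.555 to 0.728 over 9 same-number pairs and -0.477 to -0.112 over 18 others. This pairing comes from the data, not from the labels. The block lowered the median standard error for IFNγ against media from 0.213 to 0.107.

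Members and lists were chosen with earlier results of these data known, so neither differences between numbers nor those between treatments are independent of that choice. The text names all members, Trp53, Mdm4 and Cdkn2a, called genes and the 3 most abundant of each pathway list, the 5 genes most like Cdkn1a or the members' mean, and genes stated as named after their values were seen. Fits without the libraries of a number were added after seeing the data, as was the count of members lower in every pair under other scalings. Counting floors cover counting error only. An item of the marker lists is not reported here by name.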

Additional observations from a re-analysis of the deposited data

How the results depend on the processing

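With the number as a block, 3 members instead of 0 were called between IFNγ and media, and 5 instead of 0 between IFNγ plus FK866 and media. The full block fits called 14.3% and 16.1% of all genes. With the block and without the libraries of number 3, 4 or 5 the members called were 4, 3 and 2, and 6, 3 and 4. The shares of all genes called in these reduced fits are not given here, so these counts cannot be judged against them. The block changed no call between IFNγ plus FK866 and IFNγ. Scaling by library totals, or leaving out the IFNγ plus FK866 library of number 4, gave 1 member with all number 4 libraries above the others instead of 0, and gave 7 with all number 5 libraries below instead of 4. Leaving out the media library of number 5 gave 8. Shares of all genes in these settings are not given here, so these counts are not read as a result about the members.

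Some uncalled differences changed sign, and the cause was not tested. Between IFNγ and media, Ccng1 had -0.04 on the log2 scale by library totals and -0.01 with the block without number 5. Tnfrsf10b had -0.11 with the block, -0.31 and -0.13 with the block without numbers 3 and 4, and -0.04 by library totals. Phlda3 had 0.01 with the block without number 5. Between IFNγ plus FK866 and media, Mdm2 had -0.02 with the block, and -0.03 and -0.09 with the block without numbers 3 and 4.

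Without the block, leaving out 1 library moved the log2 fold change between IFNγ and media from -0.15 to 0.81 for Cdkn1a, -0.29 to 0.42 for Mdm2, -0.45 to 0.46 for Ccng1, -0.87 to 0.47 for Trp53inp1, -1.30 to 1.00 for Tnfrsf10b, -0.81 to 0.06 for Zmat3, -0.47 to 0.34 for Phlda3 and -0.13 to 0.03 for Bax. Between IFNγ plus FK866 and IFNγ it ran from -0.57 to 0.38 for Cdkn1a, -0.43 to 0.31 for Mdm2, -0.58 to 0.29 for Ccng1, -0.81 to 0.58 for Trp53inp1, -1.59 to 1.09 for Tnfrsf10b, -1.35 to 0.47 for Btg2, -0.04 to 0.17 for Sesn1, -0.66 to 0.39 for Zmat3 and -0.68 to 0.24 for Phlda3. Between IFNγ plus FK866 and media it ran from -0.24 to 0.72 for Cdkn1a, -0.35 to 0.36 for Mdm2, -0.58 to 0.29 for Ccng1, -0.93 to 0.30 for Trp53inp1, -1.57 to 0.78 for Tnfrsf10b and -0.71 to 0.14 for Phlda3. Leaving out 1 library makes the groups uneven in number, so these ranges also hold the differences between numbers. With the block and all libraries of a number left out, the values for IFNγ against media ran from 0.29 to 0.35 for Cdkn1a. They ran from 0.02 to 0.12 for Mdm2, -0.27 to -0.12 for Trp53inp1, -0.51 to -0.19 for Zmat3 and -0.12 to -0.01 for Bax. Those of Ccng1 (-0.01 to 0.03), Tnfrsf10b (-0.31 to 0.075) and Phlda3 (-0.095 to 0.005) changed sign.

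Of the 30 differences between numbers, 3 small ones crossed 0: number 3 minus 4 for Sesn1 (-0.14 to 0.09 over single libraries left out), number 3 minus 5 for Bax (-0.07 to 0.03, and 0.02 by library totals) and number 4 minus 5 for Tnfrsf10b (-0.03 to 0.44). Each number has 1 library per treatment, so whether a treatment acts differently between numbers could not be tested.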
